A study of Mus musculus with 48 samples.

Results

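Txnip, Arrdc4, Arrdc3, Mlxip and Mlx were followed through all conditions of an RNA-Seq series on striatal progenitor cells. The 5 genes were chosen by name, out of 27281 genes in the table, with earlier results of these data known, among them a low Txnip level after meclizine and diacylglycerol kinase inhibitor II (DKI). Their levels are therefore given as descriptions without a test. All 5 passed the minimum level set for testing, as did 13409 of the 18178 genes with a symbol.

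The cells were conditionally immortalized murine lines, STHdhQ111, which is homozygous for a knocked-in huntingtin with an expanded polyglutamine stretch, and the wild-type STHdhQ7. Each genotype was represented by 1 purchased line, so that genotype and any other difference between the lines cannot be told apart. Cells were seeded in medium with serum and then kept for 24 hours in serum-free medium, which kills STHdhQ111 cells more readily, and every group shared this withdrawal. RNA-Seq covered 48 samples, 3 in each of 16 conditions. These were STHdhQ111 cells with vehicle, STHdhQ7 cells with vehicle, and STHdhQ111 cells with each of 14 compounds that the study took up as protective.

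Meclizine, cyproheptadine, loxapine, selisistat and DKI were given at 10 µM, pizotifen at 5 µM and cysteamine at 250 µM. Cells received 4-deoxypyridoxine (DOP) at 4 mM and sodium butyrate at 1 mM. Among the compounds in the nM range, fingolimod phosphate was given at 250 nM, trichostatin A at 10 nM, nortriptyline at 1 nM, and both nicotinamide and haloperidol at 0.5 nM. Group A is cyproheptadine, loxapine and pizotifen, and Group B is DKI and meclizine, as the study grouped them from metabolite profiles. All comparisons with the STHdhQ111 vehicle share its 3 samples. Nothing in the labels says that the 3 samples of a condition came from separately grown stocks, so the spread between them may be technical.

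The 5 genes belong to a glucose-sensing axis. Mlxip encodes MondoA, a transcription factor that pairs with Mlx. MondoA and its paralog ChREBP respond to glucose 6-phosphate and bind carbohydrate response elements, which are pairs of E-box-like sequences set a fixed distance apart. Txnip and Arrdc4 are among their best known targets. Txnip encodes an alpha-arrestin that binds thioredoxin and restrains glucose uptake, partly by drawing glucose transporters from the cell surface. Arrdc4 and Arrdc3 encode related alpha-arrestins, adaptors that bring membrane proteins to ubiquitin ligases.

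The promoters of Txnip, Arrdc4 and Mlx are shown because they hold E-box-like sequences. Only the Txnip window matched the form of the spaced pair that was searched, and those of Arrdc4 and Mlx held a single E-box. Looser forms of the pair were not searched. The windows lie within 250 bases upstream of the RefSeq transcript starts (GRCm38.p6), are read 5′ to 3′ on the gene's strand, and leave out bases inside the annotated gene. Capitals mark a carbohydrate response element-like pair in Txnip, an E-box in Arrdc4, and an E-box with its flanking bases in Mlx.
Txnip (chr3:96557707-96557956, plus strand): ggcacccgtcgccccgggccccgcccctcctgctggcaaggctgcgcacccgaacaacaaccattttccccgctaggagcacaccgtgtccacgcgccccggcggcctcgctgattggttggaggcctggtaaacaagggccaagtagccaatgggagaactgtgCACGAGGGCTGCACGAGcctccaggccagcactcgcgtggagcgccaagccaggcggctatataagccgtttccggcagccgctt
Arrdc4 (chr7:68749242-68749488, minus strand): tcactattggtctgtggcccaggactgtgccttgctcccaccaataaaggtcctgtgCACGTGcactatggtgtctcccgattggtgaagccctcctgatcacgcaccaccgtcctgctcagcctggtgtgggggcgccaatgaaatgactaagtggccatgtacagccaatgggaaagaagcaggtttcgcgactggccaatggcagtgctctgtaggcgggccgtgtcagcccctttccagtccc
Mlx (chr11:101087040-101087276, plus strand): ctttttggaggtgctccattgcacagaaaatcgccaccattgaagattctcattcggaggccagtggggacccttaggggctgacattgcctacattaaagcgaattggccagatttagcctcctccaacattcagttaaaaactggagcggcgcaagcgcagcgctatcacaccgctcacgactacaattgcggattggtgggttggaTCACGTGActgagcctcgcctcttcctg

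In the Txnip promoter, 2 E-box-like sequences with 5 bases between them lay 69 to 85 bases upstream of the transcript start, at chr3:96557872-96557888. The pattern searched was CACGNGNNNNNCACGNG on either strand, and it was found in 15 of the 32851 RefSeq mouse promoter windows of 250 bases, or 0.0457%, where a gene may have several windows. These windows belong to 14 genes, of which 9 were tested here. Of the 8 besides Txnip, limma at an adjusted p under 0.05 called 1 in Group A, which was higher, where 32.8% of all genes were called. In Group B it called 4, of which 3 were higher and 1 lower (41% of all genes), and after sodium butyrate 3, of which 2 were higher and 1 lower (37.5%). After DOP it called 0 (20.1%), and 3 had an unadjusted p under 0.05. The palindromic E-box CACGTG, present in 6.02% of windows, lay 188 to 193 bases upstream in Arrdc4 and 35 to 40 bases upstream in Mlx. In Mlx it sat inside TCACGTGA, a form present in 0.785% of windows, which was looked up after the sequence had been seen. The Arrdc3 and Mlxip windows held neither the tandem pattern nor the E-box. The pentamer CCAAT, which 33.8% of windows hold on either strand, occurred 6 times in Arrdc4 and 2 times in Txnip. A match of letters is a description and does not show that a factor is bound.

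**Figure D1:**
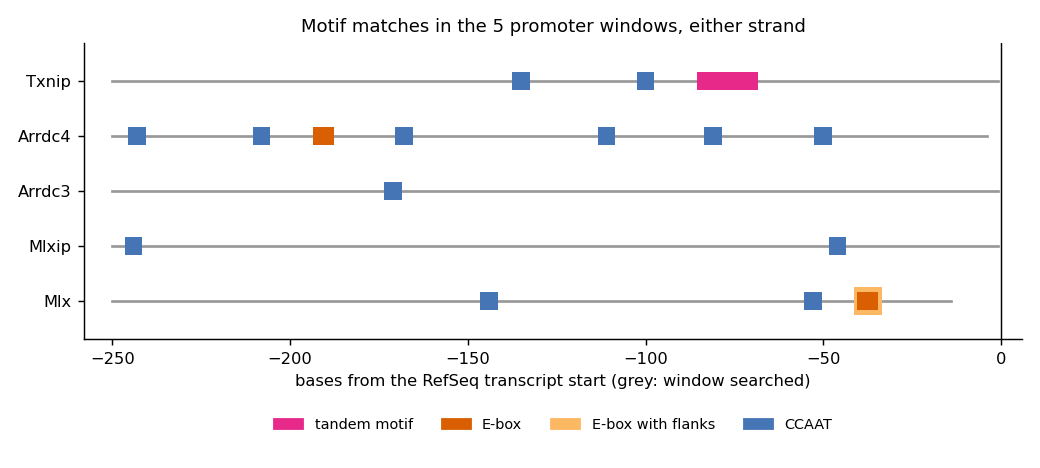
Motif matches in the promoter windows of the 5 genes, by distance in bases from the RefSeq transcript start, with grey lines for the windows searched and boxes for matches on either strand. The tandem pattern is present in Txnip, the E-box in Arrdc4 and Mlx, and CCAAT in all 5 windows.

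Values are the authors' normalized abundances, read here as log2. They carry no read counts, and sequencing depth is unknown. Across genes, replicates of a condition had a correlation of 0.9964 to 0.9994, and the median gene had a residual SD of 0.086. Some neural progenitor markers parted the cell lines strongly and others little. Nes was at 10.95 in STHdhQ7 and 4.96 in STHdhQ111 vehicle cells, and Sox2 was at 8.91 and 4.81, while Vim was at 15.6 and 15.4. Pax6 was at 5.41 and 2.81, Msi1 at 4.82 and 4.23, and Fabp7 at 0.77 and 0.67. The leukocyte gene Ptprc was at 7.86 and 10.6, while Aif1 and Cx3cr1 of the same list had means of -2.18 and -1.81 and were below 0 in every sample. In STHdhQ111 cells with compounds, Nes ranged from 4.46 to 7.14 and Ptprc from 9.83 to 10.9. Haloperidol replicate 2 lay toward STHdhQ7 cells in Rgs16, Slc2a3 and Khk, which part the lines strongly. It was at 3.64, 4.04 and 3.68. The other haloperidol replicates were at 2.73 and 2.74, 3.28 and 3.18, and 2.76 and 2.83. For Slc2a1, which also parted the lines, replicate 2 was at 9.84, between the others. The reason was not tested, and the sample was kept. Of the fibroblast or mesenchymal markers, Col1a1 was high throughout, from 13.6 to 15.1, while Thy1 was below 0 in every sample. Pdgfra was between 7.63 and 9.44 and Dcn between 6.74 and 7.95. Of the striatal neuron markers, Drd1, Gad1, Gad2 and Rbfox3 were below 0 in every sample. Ppp1r1b was between 1.80 and 2.31, and Foxp1, which other cells also express, was between 8.90 and 10.2. Drd2, Aqp4 and Olig2 were not among the rows used. The part of cell identity in the differences between the lines was not tested.

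Txnip (ENSMUSG00000038393, chr3:96557957-96561883, plus strand, GRCm38) had condition means from 9.37 to 11.36. In STHdhQ111 cells with vehicle it was at 10.56, 10.55 and 10.68, a mean of 10.60 ± 0.073 (SD, n = 3). All 3 samples of 11 conditions lay below all vehicle samples, those of 1 condition lay above them, and those of haloperidol, fingolimod phosphate and trichostatin A overlapped them. The share of all tested genes whose samples lay entirely to 1 side of the vehicle, the background for such statements, was 51.5% for DKI, 48.8% for sodium butyrate, 45.9% for cyproheptadine, 41.7% for loxapine, 40.5% for meclizine, 36.5% for DOP and 36.1% for pizotifen. It was 33% for nicotinamide, 31% for trichostatin A, 29.3% for cysteamine, 26.4% for nortriptyline, 20.4% for fingolimod phosphate, 15% for selisistat and 8.92% for haloperidol, and 58.2% for STHdhQ7 cells. Nothing is read from these shares for the chosen genes. The lncRNA Gm15441 overlaps Txnip on the other strand and was between 2.03 and 2.42 in all samples, a level at which values hardly vary. Its mean was 2.12 with vehicle, 2.07 after meclizine, 2.16 after DOP and 2.36 after sodium butyrate. The library type keeps strand, though the strand setting of the authors' counting is not given in the sources used here. In bulk RNA, fewer expressing cells and less RNA per cell cannot be told apart.

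Meclizine, an antihistamine also known to dampen mitochondrial respiration, gave the lowest Txnip level. Its samples were at 9.16, 9.73 and 9.22, of which replicate 2 stood apart from the other two. The fitted difference from the vehicle was -1.23 (SE 0.11), or 0.426 times the vehicle level, and it was -1.41 without meclizine replicate 2. No other of the 13409 genes had a more negative difference in that comparison, whose lowest 1% of genes began at -0.50. After DKI, Txnip was at 9.61, 9.89 and 9.70, a difference of -0.87 (SE 0.11), and 59 genes were lower in rank. The samples of meclizine and DKI, both at 10 µM, overlapped.

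In Group A the Txnip values were close together. Cyproheptadine samples were at 9.86, 9.81 and 9.72, a difference of -0.80 (SE 0.11) from the vehicle. Loxapine samples were at 9.77, 9.93 and 9.97, a difference of -0.71 (SE 0.11). Pizotifen samples, given 5 µM, were at 9.79, 9.97 and 10.03, a difference of -0.67 (SE 0.11). All 9 samples were below the lowest vehicle sample, and the 3 compounds overlapped one another. For the group means the difference was -0.73 (SE 0.089) in Group A and -1.05 (SE 0.094) in Group B, and Group A was 0.32 (SE 0.070) above Group B. The Group B mean joins meclizine at -1.23 and DKI at -0.87, and DKI samples overlapped those of each Group A compound. The spread between compounds is not part of these SE values. Txnip ranked behind 15 genes in the Group A comparison and behind 1 in Group B.

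Outside these groups, DOP gave the second lowest Txnip level. DOP is a vitamin B6 antagonist that also blocks sphingosine-1-phosphate lyase. Its samples were at 9.64, 9.68 and 9.46, a difference of -1.01 (SE 0.11) or 0.498 times the vehicle level, and 2 genes were lower in rank. The lowest 1% of genes began at -0.40 in that comparison. Sodium butyrate, a short-chain fatty acid and histone deacetylase inhibitor, stood at the other end with 11.37, 11.45 and 11.27. Its difference was 0.77 (SE 0.11), or 1.70 times the vehicle level, with 117 genes higher in rank. Trichostatin A, another histone deacetylase inhibitor given at 10 nM, was at 10.93, 10.45 and 10.76, a difference of 0.11 (SE 0.11), and its range held that of the vehicle. The difference was 0.26 without trichostatin A replicate 2 and -0.0069 without replicate 1. The doses of these inhibitors differ, so their values stand side by side without a comparison.

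In STHdhQ7 cells with vehicle, Txnip was at 9.81, 10.19 and 10.14, a difference of -0.55 (SE 0.11) from STHdhQ111 cells. All 3 samples were below those of the STHdhQ111 vehicle. In that comparison 796 genes were lower in rank, and the lowest 1% of genes began at -1.44. These are the cells in which Nes was at 10.95 against 4.96. Nicotinamide, cysteamine, selisistat and nortriptyline had differences of -0.20, -0.20, -0.17 and -0.16 (SE 0.11 each). In the order of the condition means, neighbouring conditions overlapped except at 3 places, which were above STHdhQ7, above nortriptyline and below sodium butyrate.

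**Figure D2:**
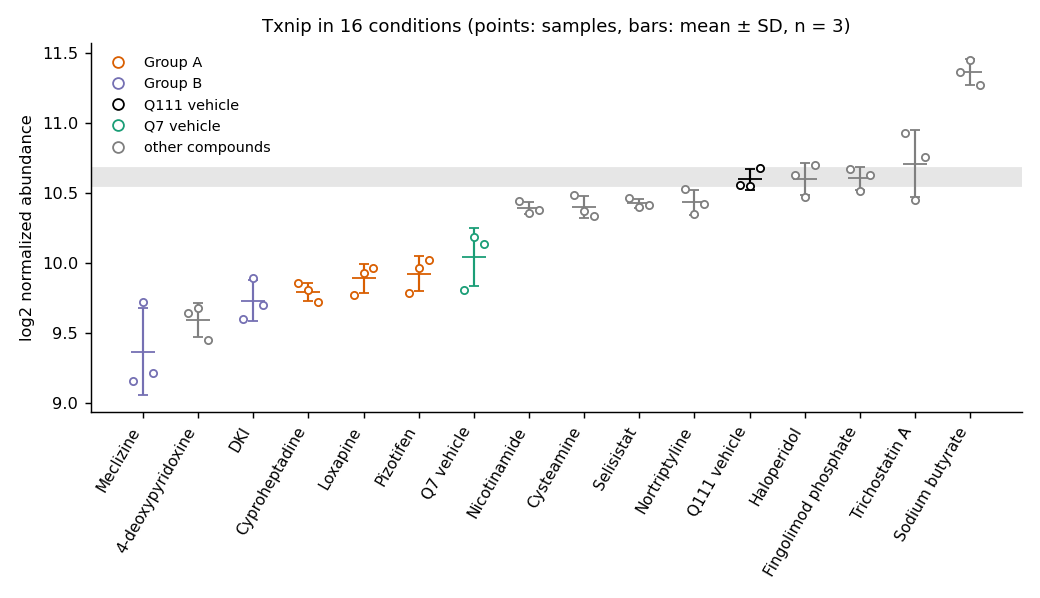
Txnip in log2 normalized abundance by condition, ordered by the mean. Points are samples, bars are the mean ± SD (n = 3), the grey band spans the STHdhQ111 vehicle samples, and colors mark Group A, Group B, both vehicle controls and other compounds. Samples of Groups A and B, DOP and STHdhQ7 lie at or below 10.19, the vehicle samples at or above 10.55, and sodium butyrate at or above 11.27.

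Arrdc4 (ENSMUSG00000042659, chr7:68736995-68749241, minus strand) had its lowest means after DOP and meclizine, the conditions with the lowest Txnip. In the STHdhQ111 vehicle it was at 5.90, 5.96 and 6.10, a mean of 5.99 ± 0.10 (SD, n = 3). DOP samples were at 5.62, 5.36 and 5.25, a difference of -0.57 (SE 0.092). Meclizine samples were at 5.43, 5.56 and 5.36, a difference of -0.53 (SE 0.092). These values lay below all vehicle samples. Loxapine, cyproheptadine, pizotifen and DKI followed with differences of -0.41, -0.34, -0.27 and -0.24 (SE 0.092 to 0.093), again without overlap with the vehicle. The STHdhQ7 samples were at 5.55, 5.74 and 5.31, a difference of -0.45 (SE 0.092). The group differences from the vehicle were -0.34 (SE 0.076) for Group A and -0.39 (SE 0.080) for Group B, and the groups differed by 0.05 (SE 0.060). No gene overlaps Arrdc4 in the annotation.

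Sodium butyrate set Arrdc4 apart from Txnip. Arrdc4 was at 5.75, 5.95 and 5.96 there, a difference of -0.10 (SE 0.092) that overlapped the vehicle, whereas Txnip was at its highest level. Of all conditions, 9 had Arrdc4 samples that lay entirely below the vehicle and 0 had samples entirely above it. Every condition overlapped the next one in the order of the Arrdc4 means.

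Arrdc3 (ENSMUSG00000074794, chr13:80883384-80896042, plus strand) was at 7.78, 7.55 and 7.68 in the STHdhQ111 vehicle. The means of the 5 compounds of Groups A and B lay between 7.35 and 7.48. DKI samples were at 7.41, 7.30 and 7.35, the lowest mean of the 16 conditions, with a difference of -0.31 (SE 0.12). Samples of DKI, cyproheptadine, loxapine and pizotifen were all below the vehicle, and those of meclizine overlapped it. The difference was -0.22 (SE 0.098) for Group A and -0.27 (SE 0.10) for Group B. DOP had the highest Arrdc3 level, at 7.87, 8.23 and 7.91, a difference of 0.33 (SE 0.12) with no overlap, in the samples in which Txnip and Arrdc4 were low. Replicate 2 was the highest of them, and without it the DOP difference was 0.21. In STHdhQ7 cells, replicate 1 was at 6.97 and the others at 7.67 and 7.76, so the difference of -0.20 (SE 0.12) became 0.064 without that sample and was -0.36 without replicate 3. In the order of the Arrdc3 means, cyproheptadine did not overlap with selisistat, the next condition above it, and other neighbours overlapped. The transcript 1700023H06Rik on the other strand was between -1.28 and -1.21, a level at which values hardly vary.

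Mlxip (ENSMUSG00000038342, chr5:123394798-123457932, plus strand), which encodes MondoA, was highest in the STHdhQ111 vehicle, at 8.45, 8.38 and 8.30. The samples of 13 conditions lay entirely below these values, and those of selisistat and haloperidol overlapped them. The lowest mean was that of STHdhQ7 cells, at 7.97, 8.04 and 8.11, a difference of -0.33 (SE 0.058). Sodium butyrate followed with -0.27 (SE 0.058), pizotifen with -0.25 (SE 0.058) and loxapine with -0.24 (SE 0.058). The cyproheptadine difference of -0.21 (SE 0.058) was -0.14 without its replicate 1, and the DKI difference of -0.10 (SE 0.058) was -0.07 without STHdhQ111 vehicle replicate 1. Group A differed from the vehicle by -0.23 (SE 0.047) and Group B by -0.11 (SE 0.050), and Group A was below Group B by a difference of -0.12 (SE 0.037). In the order of means each Mlxip condition overlapped the next. The transcripts Gm42907, Gm42908 and Gm43813 overlap Mlxip on the same strand and had means of 0.87, -1.91 and 2.65.

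Mlx (ENSMUSG00000017801, chr11:101087277-101092207, plus strand), the partner of MondoA, was higher after the Group A compounds. Vehicle samples were at 8.23, 8.23 and 8.28. Cyproheptadine samples, at 8.66, 8.59 and 8.64, formed the highest mean and did not overlap with the next condition, with a difference of 0.38 (SE 0.059). Pizotifen samples were at 8.48, 8.46 and 8.44, loxapine samples at 8.36, 8.46 and 8.45 and DKI samples at 8.55, 8.35 and 8.36, all above the vehicle. The DKI difference of 0.17 (SE 0.059) was 0.11 without DKI replicate 1. Meclizine samples were at 8.12, 8.28 and 8.12 and overlapped it. The difference was therefore 0.26 (SE 0.047) for Group A and 0.05 (SE 0.050) for Group B, a mean of compounds that lay on both sides of the vehicle. Group A was 0.21 (SE 0.037) above Group B. Fingolimod phosphate samples also lay above the vehicle, selisistat samples lay below it, and those of 9 conditions overlapped it. Psmc3ip overlaps Mlx on the other strand and was between 7.65 and 8.01.

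**Figure D3:**
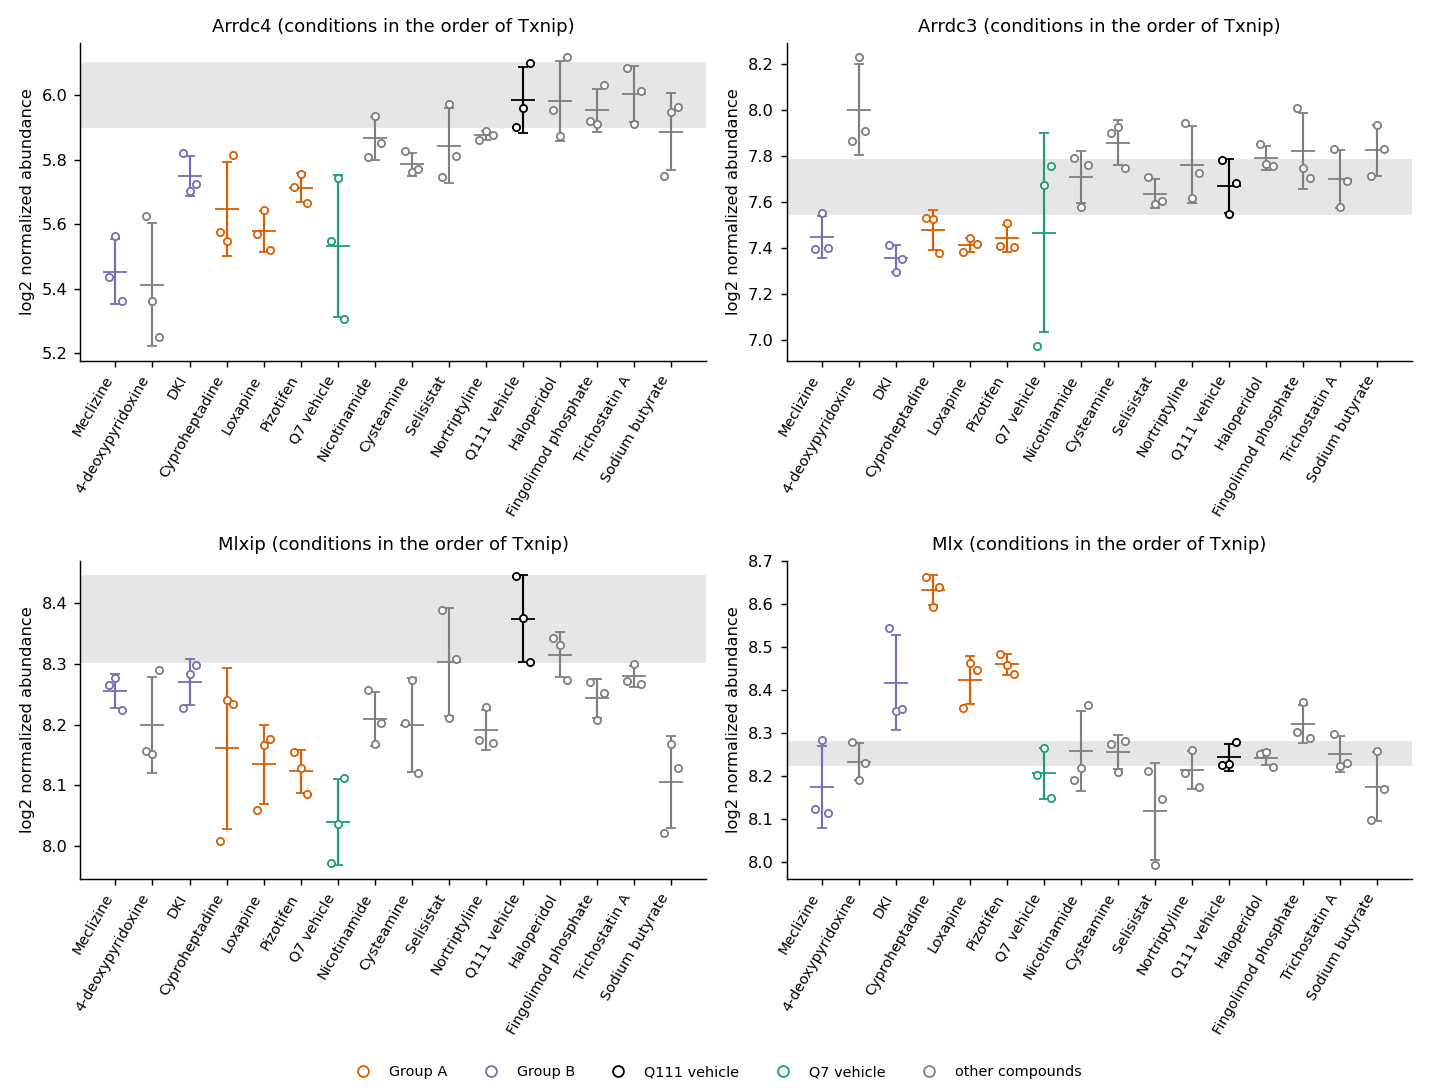
Arrdc4, Arrdc3, Mlxip and Mlx in log2 normalized abundance, with conditions in the order of the Txnip means. Points are samples, bars are the mean ± SD (n = 3), and grey bands span the STHdhQ111 vehicle samples. Arrdc4 runs from 5.41 after DOP to 6.00 after trichostatin A, Arrdc3 is highest after DOP with samples up to 8.23, Mlxip is highest in the vehicle at 8.37, and Mlx is highest after cyproheptadine at 8.63.

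Under the threshold used for all genes, an adjusted p under 0.05, 4 of the 5 genes were past it in Group A, 3 lower and 1 higher, where 32.8% of all genes were called. In Group B it was 3, all lower (41% of all genes), in STHdhQ7 cells 3, all lower (55.8%), after DOP 4 (20.1%) and after sodium butyrate 2 (37.5%). Between Groups A and B it was 3 (41.3%). Since the genes were chosen with these comparisons known, nothing is read from the counts.

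Over the 16 condition means, Txnip correlated with Arrdc4 at r = 0.83, with Arrdc3 at 0.52, with Mlxip at 0.12 and with Mlx at -0.39. Without sodium butyrate and DOP these values were 0.90, 0.85, 0.42 and -0.40. Sodium butyrate is where Arrdc4 departed from Txnip, and DOP is where Arrdc3 did. Leaving them out thus favors higher values for these genes, and nothing is read from the rise. The condition means share the normalization and the collection days. Among 9933 other genes with a mean of at least 6, the highest correlations with Txnip were those of Mypop (0.85), Sdha (0.83), Hdac1 (0.82), Ryk (0.81) and Sesn1 (0.81). Sdha encodes a subunit of succinate dehydrogenase, Hdac1 a histone deacetylase and Sesn1 a stress-responsive sestrin. The lowest were those of Gys1 (-0.85), Parn (-0.84), Pemt (-0.82), Aga (-0.81) and Crlf2 (-0.81), of which Gys1 encodes glycogen synthase of muscle and other tissues. A share of 0.0201% of these genes had a higher correlation with Txnip than Arrdc4 had, although Arrdc4, with a mean of 5.77, lies below the minimum set for them. Since Txnip and Arrdc4 were chosen with earlier results of these data known, nothing is read from this share. Between the lowest and highest condition means, the 5 genes most like Txnip spanned 0.35 (Sdha) to 0.66 (Ryk) log2 units, and Arrdc4 spanned 0.59.

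**Figure D4:**
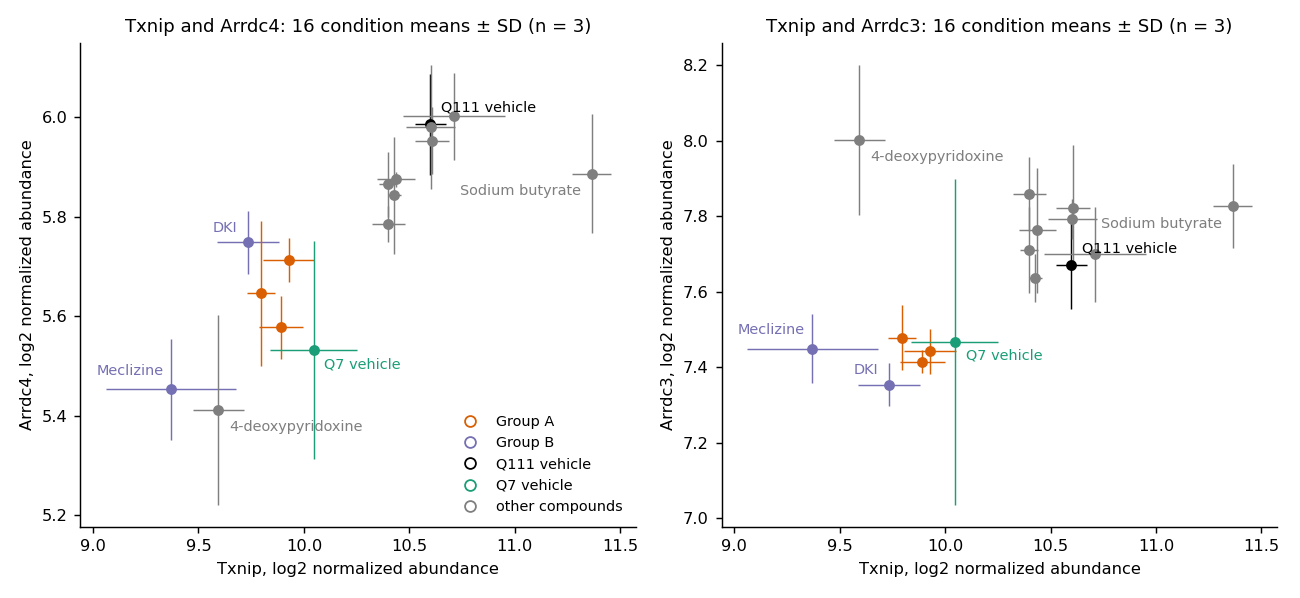
Mean log2 normalized abundance of Arrdc4 (left) and Arrdc3 (right) against that of Txnip in the 16 conditions, with bars for the SD (n = 3). Meclizine and DKI lie to the left of the vehicle in both panels, DOP lies low for Arrdc4 and high for Arrdc3, and sodium butyrate is set apart to the right.

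Samples were collected on 3 days and at 3 times a day, and most compounds did not share these slots with the vehicle. Of the compounds in question, meclizine and pizotifen shared all slots with fingolimod phosphate, haloperidol and trichostatin A. The haloperidol samples include replicate 2, which stood apart in some genes. DOP, loxapine, cysteamine and sodium butyrate shared theirs with nicotinamide and nortriptyline. Against these conditions dosed in nM, a control chosen after the data had been seen, Txnip differed by -1.27 (SE 0.088) after meclizine, -0.71 (SE 0.088) after pizotifen, -0.82 (SE 0.094) after DOP, -0.52 (SE 0.094) after loxapine and 0.95 (SE 0.094) after sodium butyrate. None of these 5 overlapped with its matched conditions, while cysteamine, at -0.02 (SE 0.094), did. The matched conditions are themselves compounds, so any effects of theirs enter these differences. Txnip was at 10.93, 10.45 and 10.76 after trichostatin A, where the vehicle was at 10.56, 10.55 and 10.68. The spread between the matched compounds is not part of the SE. Arrdc4 differed by -0.53 (SE 0.075) after meclizine, -0.46 (SE 0.080) after DOP, -0.29 (SE 0.080) after loxapine and -0.27 (SE 0.075) after pizotifen, without overlap.

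For Mlxip, the differences from the matched conditions were nearer to 0 than those from the vehicle. It differed by -0.0008 (SE 0.050) after DOP, -0.0015 (SE 0.050) after cysteamine and -0.02 (SE 0.047) after meclizine, all with overlap. After loxapine, of Group A, it differed by -0.07 (SE 0.050), also with overlap, where the difference from the vehicle was -0.24. Mlxip remained below without overlap after pizotifen, at -0.16 (SE 0.047), and sodium butyrate, at -0.09 (SE 0.050). Mlx stayed higher after pizotifen, at 0.19 (SE 0.047), and after loxapine, at 0.19 (SE 0.050), the latter with overlap. Arrdc3 was lower by a difference of -0.32 after meclizine, -0.33 after pizotifen and -0.32 after loxapine, without overlap, and DOP was higher by 0.27 with overlap. Cyproheptadine and DKI shared 2 of their 3 slots with the vehicle, those of replicates 2 and 3. In the slot of replicate 2, Txnip was at 9.81 after cyproheptadine, 9.89 after DKI and 10.55 with vehicle. In the slot of replicate 3, it was at 9.72, 9.70 and 10.68.

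Genes around the axis were taken from 5 lists of 64 genes in all, of which 59 were in the table and 53 were tested. Arrdc5, Usf1, Hk3, Pklr and Fgf21 were not among the rows used, and Thrsp, Nlrp3, Mycn, Slc2a12 and Pnpla3 were among the genes below the minimum level. Mlxipl, which encodes ChREBP, stood at a mean of 1.04 with a range of 0.97 to 1.18, close to the minimum. Of the 53 genes, 17 were called in Group A (11 higher and 6 lower), a share of 32.1% beside 32.8% of all genes. In Group B 24 were called (12 higher and 12 lower), 45.3% beside 41%. In STHdhQ7 cells 38 were called (26 higher and 12 lower), 71.7% beside 55.8%. Between Groups A and B 27 were called, 50.9% beside 41.3%, after DOP 17, 32.1% beside 20.1%, and after sodium butyrate 23, 43.4% beside 37.5%. The median difference over the 53 genes was -0.01 in Group A, 0.01 in Group B and 0.17 in STHdhQ7 cells, and over all genes tested 0.0014, -0.0041 and 0.0040. By direction, 15.6% of all genes were called higher and 17.2% lower in Group A, 19.8% and 21.2% in Group B, and 29.2% and 26.6% in STHdhQ7 cells. Adjusted p-values are from limma with Benjamini-Hochberg adjustment over all genes tested.

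Of the genes of glucose entry, Hk2 and Slc2a1 rose in both groups. Hk2, the hexokinase that makes glucose 6-phosphate in many proliferating cells, was at 7.52, 7.42 and 7.33 in the STHdhQ111 vehicle. It was at 8.61, 8.72 and 8.58 after meclizine and at 9.14, 8.64 and 9.05 after DKI. In Group B it rose by 1.37 (SE 0.12, adjusted p = 8.45e-12) and in Group A by 1.07 (SE 0.11, adjusted p = 3.32e-09), in 6 of 6 and 9 of 9 samples. Slc2a1, which encodes the glucose transporter GLUT1, rose by 0.54 (SE 0.087, adjusted p = 7.31e-06) in Group A and by 0.44 (SE 0.093, adjusted p = 0.000176) in Group B. After cyproheptadine Slc2a1 was at 10.27, 10.81 and 10.68, where the vehicle was at 9.77, 9.70 and 9.81. Slc2a6, another transporter of this family, rose by 0.80 (SE 0.097, adjusted p = 4.59e-08) in Group A and differed by 0.13 (SE 0.10) in Group B. The difference between the groups was 0.67 (SE 0.077, adjusted p = 3.56e-09). Of the 13 tested genes of this list, 4 rose and 0 fell in Group A, a share of 30.8% beside 32.8% of all genes. In Group B 4 rose and 1 fell, 38.5% beside 41%. The gene that fell was Hk1 with -0.45 (SE 0.064, adjusted p = 3.97e-07). Hk1 lies outside the naming rule and is given to complete the count.

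Hk2 was not called after DOP or sodium butyrate. After DOP, where Txnip was low, Hk2 was at 7.46, 7.39 and 7.54, a difference of 0.04 (SE 0.14, adjusted p = 0.878), and Slc2a1 differed by 0.15 (SE 0.11, adjusted p = 0.342). After sodium butyrate Hk2 differed by -0.21 (SE 0.14, adjusted p = 0.242). In STHdhQ7 cells, all 13 genes of the list were called, 11 higher and 2 lower, at a background of 55.8%, in cells that also differed in Nes and Ptprc. Slc2a3, the neuronal glucose transporter GLUT3, was at 5.28, 5.37 and 5.33 against 3.39, 3.04 and 3.03 in STHdhQ111 cells, a rise of 2.17 (SE 0.12, adjusted p = 1.24e-18). Slc2a6 rose by 1.62 (SE 0.12, adjusted p = 8.93e-15), Slc2a1 by 1.12 (SE 0.11, adjusted p = 1.47e-11) and Hk2 by 0.92 (SE 0.14, adjusted p = 3.37e-07). The 2 lower genes were G6pdx and Hkdc1, which are named after their values were seen.

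Among factors of the Max and Mlx network, Myc rose and Mxd3 and Mxd4 fell in Groups A and B. Myc, which binds E-boxes together with Max, was at 8.57, 8.80 and 8.65 in the vehicle, 9.76, 9.63 and 9.67 after meclizine, and 10.34, 9.85 and 10.08 after DKI. It rose by 1.21 (SE 0.10, adjusted p = 2.18e-12) in Group B and by 0.53 (SE 0.094, adjusted p = 3.4e-05) in Group A, and the difference of Group A from Group B was -0.69 (SE 0.074, adjusted p = 1.15e-09). Mxd3 and Mxd4 encode Max-binding repressors, and Mxd4 can also pair with Mlx. Mxd3 had a difference of -0.75 (SE 0.092, adjusted p = 2.46e-08) in Group B and -0.29 (SE 0.087, adjusted p = 0.00973) in Group A, a call lost without STHdhQ111 vehicle replicate 1 (adjusted p = 0.0958). Mxd4 had -0.54 (SE 0.070, adjusted p = 6.72e-08) and -0.31 (SE 0.066, adjusted p = 0.000347). In STHdhQ7 cells Mxd4 had -0.54 (SE 0.081, adjusted p = 4.76e-07). Mycl rose by 0.64 (SE 0.092, adjusted p = 2.07e-07) in STHdhQ7 cells. Of 11 tested genes of this list, 2 rose and 3 fell in Group A, a share of 45.5% beside 32.8% of all genes, and 3 rose and 3 fell in Group B, 54.5% beside 41%. The median differences were -0.01 and 0.06, and 2 rose and 4 fell in STHdhQ7 cells, 54.5% beside 55.8%.

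Partners of Txnip moved in part. Txn1, the cytosolic thioredoxin that Txnip binds, was not called in Group A, Group B or STHdhQ7 cells. Txnrd1, the cytosolic thioredoxin reductase, rose by 0.58 (SE 0.048, adjusted p = 2e-12) in Group B and by 0.15 (SE 0.045, adjusted p = 0.00799) in Group A, where the call was lost without STHdhQ111 vehicle replicate 3 (adjusted p = 0.0576). The Group A compounds differed in Txnrd1, with means of 11.47 after cyproheptadine, 11.27 after pizotifen and 11.18 after loxapine. Loxapine samples lay within the range of the vehicle, whose mean was 11.16. Txn2, the mitochondrial thioredoxin, rose by 0.49 (SE 0.050, adjusted p = 3.98e-10) in Group B, and its difference between the groups was -0.40 (SE 0.037, adjusted p = 2.69e-11). In STHdhQ7 cells Txn2 had a difference of -0.30 (SE 0.058, adjusted p = 2.58e-05), and the mitochondrial reductase Txnrd2 rose by 0.49 (SE 0.079, adjusted p = 1.76e-06). Ddit4, which encodes REDD1, an inhibitor of mTORC1 that forms a complex with Txnip, rose by 0.36 (SE 0.064, adjusted p = 3.1e-05) in Group A, by 0.35 (SE 0.068, adjusted p = 7.66e-05) in Group B and by 1.22 (SE 0.078, adjusted p = 2.15e-16) in STHdhQ7 cells. Its STHdhQ7 samples were at 10.07, 10.36 and 10.19 and its STHdhQ111 vehicle samples between 8.97 and 9.0. Of the 9 tested genes, 2 rose and 1 fell in Group A, 3 rose and 2 fell in Group B, and 3 rose and 2 fell in STHdhQ7 cells. The shares called were 33.3%, 55.6% and 55.6%, beside 32.8%, 41% and 55.8% of all genes. The alpha-arrestin genes Arrdc1 and Arrdc2 were the 2 that fell in Group B, with differences of -0.30 (SE 0.065, adjusted p = 0.000311) and -0.20 (SE 0.075, adjusted p = 0.032), and were chosen after their values were seen.

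Other reported targets of the Mondo factors moved in both directions. Of 12 tested genes, 3 rose and 1 fell in Group A, 2 rose and 4 fell in Group B, 7 rose and 1 fell in STHdhQ7 cells, and 0 rose and 7 fell after DOP. The shares called were 33.3%, 50%, 66.7% and 58.3%, beside 32.8%, 41%, 55.8% and 20.1% of all genes. In the DOP comparison 11.2% of all genes were called lower. Bhlhe40, a transcriptional repressor, rose by 0.60 (SE 0.059, adjusted p = 1.05e-09) in Group A, and fell after DOP with a difference of -0.49 (SE 0.072, adjusted p = 1.15e-05). Its Group B difference of 0.01 (SE 0.062) is a mean of compounds on both sides of the vehicle, since DKI samples were at 8.82, 8.67 and 8.74, all below the vehicle samples at 8.95, 9.0 and 8.99, and meclizine samples were at 9.26, 9.31 and 9.13, all above them. In STHdhQ7 cells Bhlhe40 rose by 0.74 (SE 0.072, adjusted p = 2.27e-11). Rgs16, a regulator of G protein signaling, and Khk, the fructose kinase, rose by 2.19 (SE 0.14, adjusted p = 1.38e-16) and 1.78 (SE 0.12, adjusted p = 8.03e-16) in STHdhQ7 cells, where Txnip was lower. Neither was called in Group A or B in the fit of all samples. With only the compared conditions in the limma fit, Rgs16 was called in Group A, at 0.25 (adjusted p = 0.00671). Its cyproheptadine samples (3.09, 2.92 and 3.16) and loxapine samples (3.03, 3.09 and 3.30) lay above the vehicle (2.80, 2.83 and 2.62). Those of pizotifen (2.79, 2.80 and 2.93) overlapped it. Gpd1, the cytosolic glycerol 3-phosphate dehydrogenase, rose by 0.54 (SE 0.047, adjusted p = 1.1e-12) in STHdhQ7 cells. The lipogenic genes Acly and Elovl6, chosen after their values were seen, were higher in Group A than in Group B by 0.68 (SE 0.046, adjusted p = 8.34e-15) and 0.73 (SE 0.048, adjusted p = 4.38e-15). After sodium butyrate, where 17.8% of all genes were called lower, 0 genes of this list rose and 5 fell, while Txnip was at its highest.

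AMP-activated kinase phosphorylates Txnip protein and marks it for degradation. Of 8 tested genes for its subunits and its upstream kinase, 0 rose and 1 fell in Group A and 0 rose and 2 fell in Group B. The shares called were 12.5% and 25%, beside 32.8% and 41% of all genes. Prkaa1, a catalytic subunit, had differences of -0.11 (SE 0.043, adjusted p = 0.0471) in Group A, -0.22 (SE 0.046, adjusted p = 0.000119) in Group B and -0.24 (SE 0.053, adjusted p = 0.000196) in STHdhQ7 cells. The Group A call was lost under several alternatives, with an adjusted p of 0.272 without STHdhQ111 vehicle replicate 1. Prkaa2, the other catalytic subunit, rose by 0.47 (SE 0.10, adjusted p = 0.000123) in STHdhQ7 cells, Prkag2 by 0.20 (SE 0.068, adjusted p = 0.011) and Prkab2 by 0.17 (SE 0.070, adjusted p = 0.041). Without STHdhQ7 replicate 2 the adjusted p was 0.0604 for Prkag2 and 0.24 for Prkab2. RNA levels do not measure the kinase activity.

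**Figure D5:**
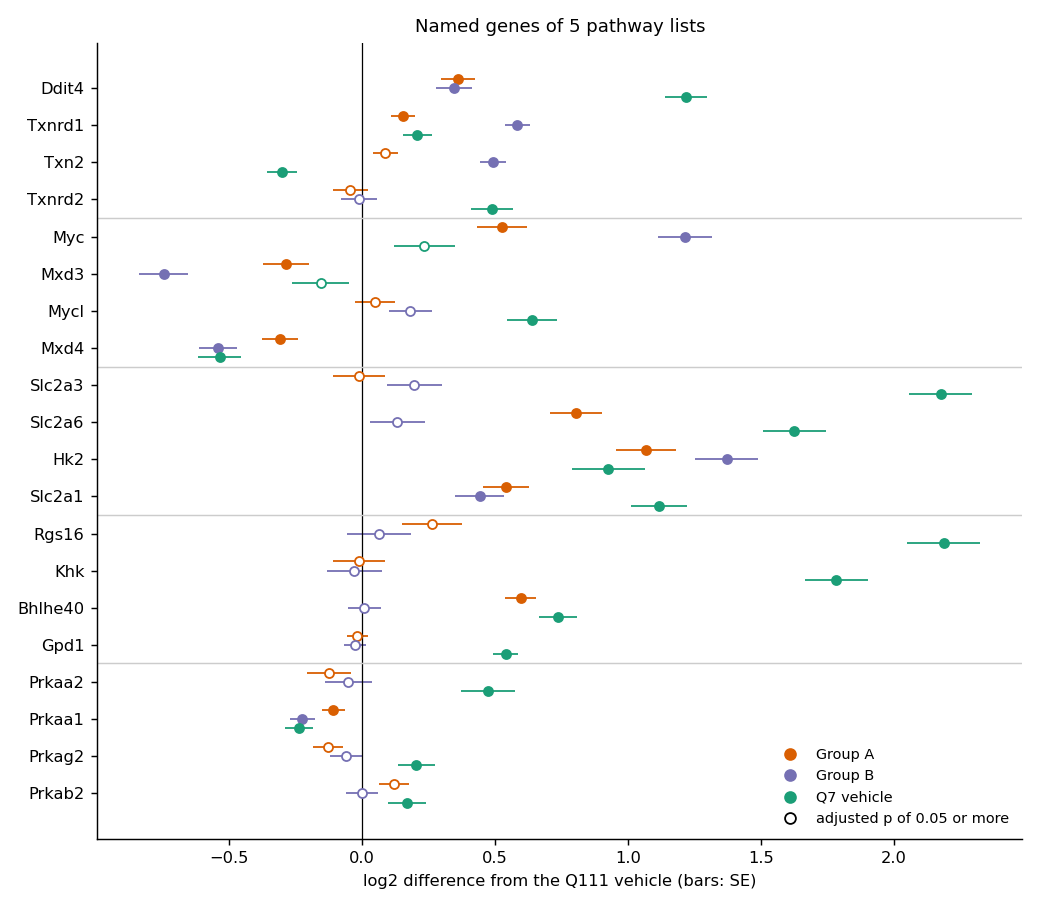
Log2 differences from the STHdhQ111 vehicle for the named genes of the 5 lists, in Group A, Group B and STHdhQ7 cells, with bars for the SE. Filled points have an adjusted p under 0.05, grey lines part the lists, and all 3 points of Hk2, at 1.07, 1.37 and 0.92, and of Slc2a1, at 0.54, 0.44 and 1.12, are filled and above 0.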

How the data were processed

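RNA was extracted from 48 samples in 16 conditions (n = 3). The authors trimmed single-end reads of poly(A)-selected, directional libraries with Trimmomatic 0.36, aligned them to the GRCm38.p5 transcriptome and quantified them with RSEM. The table deposited by the authors holds 1 normalized abundance per gene and sample, read here as log2. Levels given as times the vehicle level rest on this reading. The transformation is not named, and low values hardly vary, so differences of low genes are understated. Read counts were not used here, and the authors' DESeq2 model could not be repeated.

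With limma 3.58.1 (R 4.3.3), all samples were fitted at once with terms for the 16 conditions and for the day of collection (30 residual degrees of freedom, variance trend). Genes with a symbol and a mean of at least 1 were tested, 13409 in all, with two-sided p-values and Benjamini-Hochberg adjustment over these genes, comparison by comparison, and a gene was called at an adjusted p under 0.05. SE values come from this fit. For Groups A and B, SE and p-values rest on the spread between samples of a condition and leave out that between compounds. The 5 genes, the lists and the tests were chosen with earlier results of these data known. From each list, the text names up to 4 genes called in Group A, Group B or STHdhQ7 cells, by the size of the difference, and names others only where said. The procedure was tested on simulated data. Promoters are from RefSeq, and all 5 genes matched. Gene positions are from GENCODE M21. Figures were drawn with matplotlib 3.10.9.

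The replicate number marks the collection day in the labels, but for cyproheptadine and DKI the first replicate carries the label of day 3. The residuals of samples of the same day had a mean correlation of -0.055, and those of other days 0.028. Alternatives were other minimum levels, other day and time terms, rescaling, fits of the compared conditions only, each sample left out, and, added after seeing the data, controls dosed in nM with matching slots. A listed gene below the minimum level is not reported here.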

Additional observations from a re-analysis of the deposited data

How the results depend on the processing

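The differences of Txnip and Arrdc4 were followed in Groups A and B, in STHdhQ7 cells and between Groups A and B. Apart from 1 value, they kept their direction and their size within 1 residual SD under the alternatives run for them. No threshold was compared for these 2 genes. The numbers of listed genes called in these comparisons stayed within 1.5 times. The controls with matching slots were run for single compounds and not for the group means. The Arrdc4 difference of STHdhQ7 cells was -0.34 without STHdhQ7 replicate 3, and leaving out each sample in turn gave -0.56 to -0.34. With the replicate number as a block in place of the collection day, the Group B difference of Txnip was -1.05 and 17, 24 and 38 listed genes were called in Group A, Group B and STHdhQ7 cells, so the pairing changed none of these counts.

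Some differences of single genes turned sign. The Arrdc3 difference of STHdhQ7 cells was 0.064 without STHdhQ7 replicate 1 and -0.36 without STHdhQ7 replicate 3. A further control was the mean of the other conditions with the same 3 day and time labels. It is the other compound alone for cyproheptadine and DKI, both vehicle groups for selisistat, and other compounds for the rest. Against it, Txnip differed by 0.063 for cyproheptadine, 0.063 for cysteamine, 0.060 for nicotinamide, 0.11 for nortriptyline and 0.11 for selisistat. Arrdc4 differed by 0.062 for cysteamine, 0.10 for DKI, 0.16 for nicotinamide, 0.084 for selisistat, 0.18 for sodium butyrate, 0.17 for nortriptyline, 0.20 for haloperidol and 0.17 for fingolimod phosphate. Arrdc3 differed by 0.12 for cyproheptadine and Mlx by -0.21 for DKI. Mlxip differed by 0.032 for DOP, 0.031 for cysteamine, 0.11 for DKI, 0.00015 for fingolimod phosphate, 0.015 for meclizine, 0.044 for nicotinamide, 0.022 for nortriptyline, 0.095 for selisistat, 0.090 for haloperidol and 0.045 for trichostatin A. These values all differ in sign from those against the vehicle, and sign changes that moved a value by under 1 SD are not listed. Among the named list genes, differences lost their call in 31 cases, those of Prkaa1 and Prkab2 among them. They gained one in 9 cases, those of Rgs16 and Slc2a3 among them. Fitting only the compared conditions left the Arrdc4 and Txnip differences in their direction. Rescaling shifted samples by -0.013 to 0.0066. Depth is unknown, so no counting error is given.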
